A study of Mus musculus with 22 samples.

Results

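A set of 10 transcription factor genes of the ETS family was followed here in mpkCCD cells, a mouse cell line of the renal cortical collecting duct that makes the water channel aquaporin-2 (Aqp2). The 10 genes are Elf1, Elf2, Elf3, Elf4, Elf5, Ehf, Ets1, Ets2, Etv4 and Etv5, taken by symbol from a table of 54514 entries, in which each of them occupies a single line. All values are TPM, transcript abundances that allow for a gene's length and are scaled to a fixed total per library. There are 22 RNA-seq libraries in 10 groups. WT mpkCCD cells contributed 3 libraries without dDAVP and 3 with dDAVP, the drug desmopressin, which stimulates the V2 receptor for vasopressin, the hormone that raises Aqp2. The other 16 libraries came from GFP reporter clones named C1, C11, C43 and C50. All 4 clones received dDAVP, and the cells of each were divided by GFP into negative and positive cells, with 2 libraries of each kind. All cells were grown on permeable supports and then kept in a simple medium with dexamethasone. The title of the series names variation of Aqp2 between cells, read with the reporter, as the subject. Each reporter line is a single clone. WT cells have no GFP fractions, so clone, reporter and sorting cannot be told apart in a comparison of a clone with WT cells. Nothing in the labels says that replicates came from separate cultures, so the p-values measure the spread between these libraries only.

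ETS factors bind DNA through a shared domain, the ETS domain, which recognises a GGAA core. Elf3, Ehf and Elf5 form the epithelium-specific branch of the family, and Elf3 and Elf5 have been linked to transcription of the Aqp2 gene in collecting duct principal cells, the cells that respond to vasopressin. Elf1, Elf2 and Elf4 form a related branch that is widely expressed and best known from blood cells. Ets1 and Ets2 are founding members whose activity is raised by ERK, the MAP kinase downstream of growth factor receptors. Etv4 and Etv5 belong to the PEA3 branch, and in kidney development they act downstream of the receptors Ret and FGFR in the tips of the ureteric bud, the embryonic source of the collecting duct.

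The core motif is shown in 2 promoters, that of Aqp2, the gene whose regulation gave the set its name, and that of Elf3, the member with the highest level. Both windows are from RefSeq on build GRCm38.p6 and end before the first annotated transcript start. The Aqp2 window lies at chr15:99578806-99579054 on the plus strand and the Elf3 window at chr1:135258569-135258722 on the minus strand. Capitals mark GGAA, or TTCC where the core lies on the other strand.
Aqp2 promoter: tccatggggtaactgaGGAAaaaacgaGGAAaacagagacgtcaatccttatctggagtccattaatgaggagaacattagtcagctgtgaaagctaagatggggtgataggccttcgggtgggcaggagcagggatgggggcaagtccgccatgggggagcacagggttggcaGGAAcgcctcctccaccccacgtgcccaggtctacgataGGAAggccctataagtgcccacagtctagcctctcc
Elf3 promoter: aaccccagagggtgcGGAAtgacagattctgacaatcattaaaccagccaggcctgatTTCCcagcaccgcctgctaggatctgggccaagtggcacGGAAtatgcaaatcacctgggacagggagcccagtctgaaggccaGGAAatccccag
The Aqp2 window of 249 bases held 4 GGAA cores, counted on both strands. Of 32851 promoter windows of that length, 93.3% held at least 1 core and 33.0% held 4 or more. A longer form of the site, AGGAAG, which contains the core, matched once in the Aqp2 window and occurred in 29.4% of windows. The core of the CREB site, TGACG, searched on both strands because dDAVP acts through cyclic AMP, also matched once and occurred in 17.7% of windows. The Elf3 window of 154 bases held 4 cores as well. At that length 82.5% of windows held a core and 10.7% held as many, while AGGAAG and TGACG had no match there. These matches describe letters in a window and say nothing of binding. Of the 10 genes, 7 had a window in the promoter table.

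Aqp2 followed the labels. It rose from a group mean of 69.1 TPM in WT cells without dDAVP to 2868 TPM with dDAVP, and stood at 69.5 to 1624 TPM in the GFP-negative and 2017 to 6952 TPM in the GFP-positive group means of the clones. GFP was 8.11 to 16.4 TPM in the negative, 1114 to 1496 TPM in the positive and 0.373 to 0.38 TPM in the WT group means. One library stood apart, GFP-negative replicate 1 of clone C50, in which ribosomal protein genes took 8.32% of TPM against 3.85% to 6.12% in the other libraries. It also held the lowest value of Elf3, Elf4, Ets1 and Ets2 among all 22 libraries. Changes of members over the 4 clones that rest on it are therefore given with and without it. The fits printed for single genes outside the set include it. Sequencing depth is unknown, because TPM keep no depth. Genes with any signal numbered 17177 to 31292 per library. Epithelial markers were high, with Krt8 at 2237 TPM or more and Krt18 at 5747 TPM or more in every group mean. The principal cell water channel Aqp3 stayed between 0.395 and 4.12 TPM in group means, and Foxi1, which defines intercalated cells, stayed at or below 0.0433 TPM. Markers of fibroblasts summed to at most 0.875 TPM and those of endothelium to at most 1.15 TPM in any group mean.

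The 10 genes differed widely in level (plot of TPM by library). Over the 22 libraries Elf3 had a median of 1007 TPM (range 656 to 1861), Ehf 269 TPM (195 to 353), Elf2 120 TPM (86.2 to 161), Ets2 110 TPM (57.6 to 155) and Elf1 57.1 TPM (46.3 to 74.6). Ets1 had a median of 29.5 TPM (7.11 to 48.7), Elf4 5.83 TPM (1.79 to 10.5), Etv4 3.20 TPM (0 to 7.77), Etv5 1.38 TPM (0 to 2.92) and Elf5 0.055 TPM (0 to 0.31). Transcripts of this family in mpkCCD cells were thus mostly Elf3 and Ehf, which together made up 71.7% to 89.0% of the summed TPM of the 10 genes. The share of Elf3 and Ehf was 71.7% to 79.4% in the 8 GFP-negative libraries and 81.4% to 89.0% in the 8 GFP-positive libraries. Elf5 was close to absent from this line. It was listed at 0 in 9 of 22 libraries, and its 2 highest values, 0.31 and 0.26 TPM, came from a GFP-positive library of C43 and a GFP-negative library of C11.

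**Figure D1:**
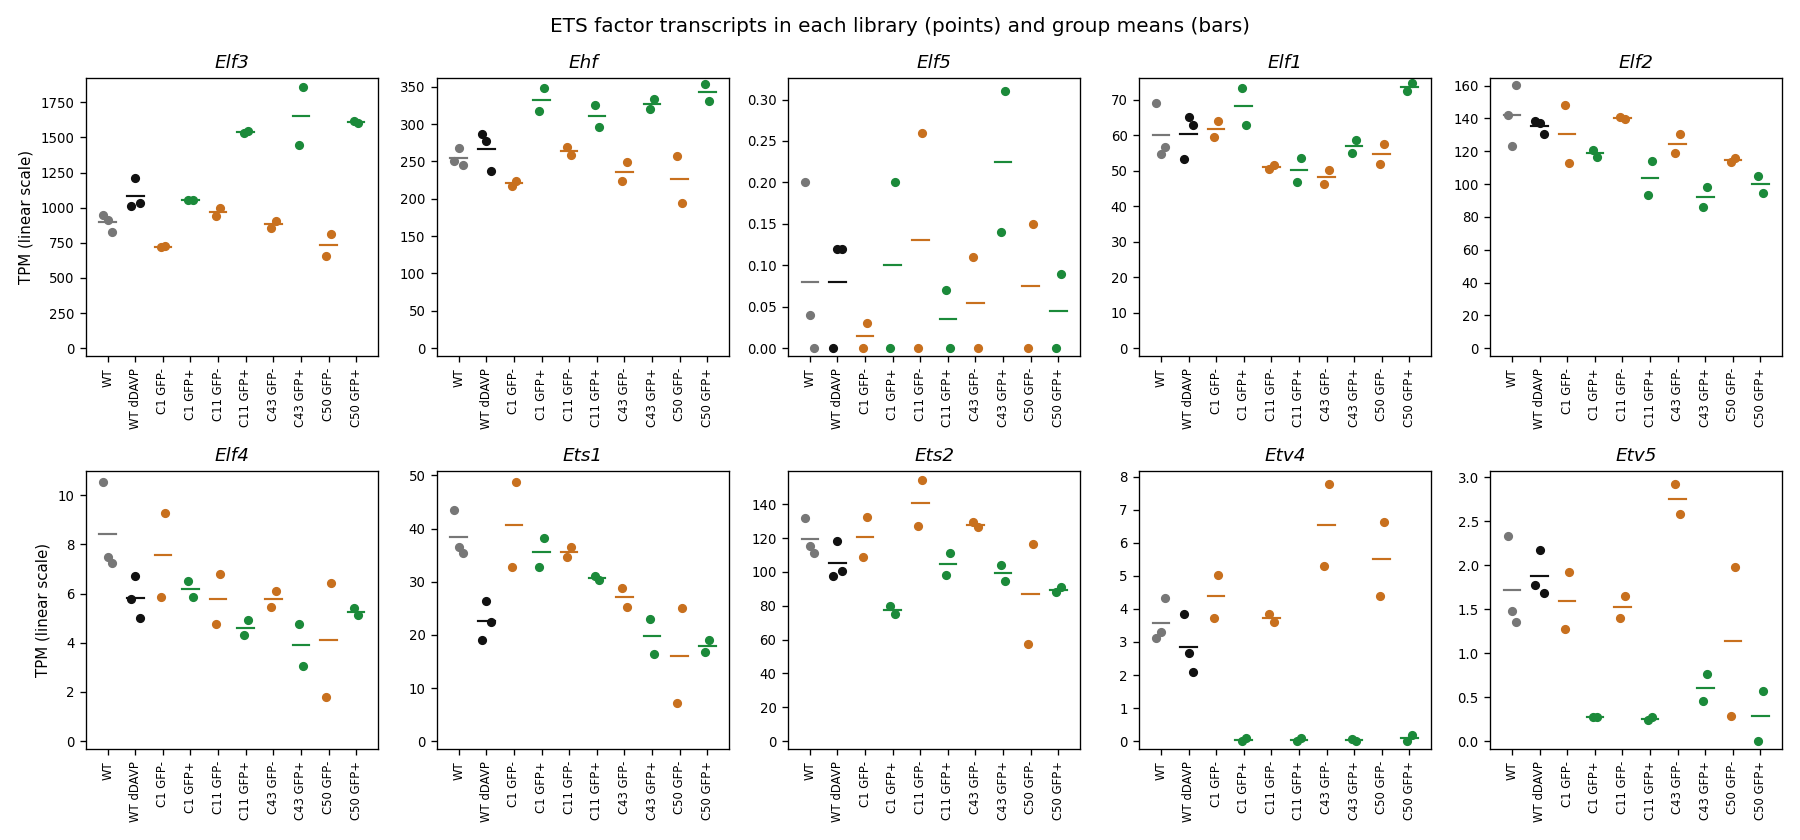
TPM (linear axis, one scale per panel) of the 10 ETS factor genes in the 22 libraries, by group. Points are libraries and bars are group means, in grey and black for WT cells, orange for GFP-negative and green for GFP-positive fractions. The green points of Elf3 and Ehf lie above the orange points in every clone, and the green points of Etv4 lie at 0 to 0.19 TPM.

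Elf3 (ENSMUSG00000003051), an activator of epithelial differentiation genes, was higher in the GFP-positive fraction of every clone. The 8 GFP-negative libraries gave 656, 835 and 999 TPM as lowest, median and highest value, and the 8 GFP-positive libraries 1052, 1538 and 1861 TPM. The fractions did not overlap, either over all 16 libraries or within a clone. GFP-negative libraries averaged 827 ± 120 TPM (SD, n = 8) and GFP-positive ones 1464 ± 279 TPM (SD, n = 8), 1.77 times as much. The change over the 4 clones was 0.81 on the log2(TPM + 1) scale (SE 0.0821, limma adjusted p 4.3e-06), and every log2 change below is on that scale. Without C50 GFP-negative replicate 1 it was 0.75 (adjusted p 8.72e-07). An exact permutation of the fraction labels within clones, two-sided, gave p 0.001543, the smallest that 1296 arrangements allow. Among WT libraries Elf3 was 948, 909 and 828 TPM without dDAVP and 1015, 1211 and 1034 TPM with dDAVP. The 3 dDAVP libraries all lay above the 3 others, but the gap was small beside the spread. The change with dDAVP was 0.28 (SE 0.0901, limma adjusted p 0.0917), and the exact permutation test of 3 against 3 libraries cannot go below 0.1. That change passed the threshold only when libraries were rescaled by the median ratio (0.45, adjusted p 0.0336), and it was 0.16 (adjusted p 0.452) after quantile normalization.

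Ehf (ENSMUSG00000012350), the close relative of Elf3 in the epithelium-specific branch, showed the same separation at a smaller size. GFP-negative libraries gave 195, 237 and 270 TPM as lowest, median and highest value, and GFP-positive libraries 297, 328 and 353 TPM. The ranges did not touch. The averages were 237 ± 25.7 TPM (SD, n = 8) and 328 ± 17.8 TPM (SD, n = 8), a 1.39-fold difference, with a log2 change of 0.48 (SE 0.0701, limma adjusted p 1.13e-04). The within-clone exact permutation p was again the smallest possible, 0.001543. In WT cells Ehf was 251, 268 and 245 TPM without and 286, 278 and 237 TPM with dDAVP. Those libraries overlapped, and the change of 0.06 (limma adjusted p 0.647) did not pass, with a 95% interval of -0.14 to 0.27. All 6 WT libraries, with dDAVP or without, lay below the lowest GFP-positive library.

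Etv4 (ENSMUSG00000017724), a PEA3 factor of the ureteric bud tip, was the member in which the fractions were farthest apart. Without dDAVP the WT libraries held 3.11, 3.29 and 4.33 TPM, and with dDAVP 3.84, 2.67 and 2.08 TPM. The WT groups overlapped (change -0.26, limma adjusted p 0.455). The 2 GFP-negative libraries of C1 held 3.74 and 5.02 TPM, those of C11 3.84 and 3.59, those of C43 5.29 and 7.77, and those of C50 4.40 and 6.64 TPM. Among GFP-positive cells every clone had 1 library in which Etv4 was listed at 0, and its other library held 0.09 TPM (C1), 0.10 (C11), 0.08 (C43) or 0.19 (C50). Every GFP-positive library was therefore below every one of the 14 others, of which the lowest held 2.08 TPM. The log2 change was -2.48 (SE 0.141, limma adjusted p 2.12e-08), and it was -5.09 (adjusted p 3.97e-08) with a pseudocount of 0.1 in place of 1. Etv4 passed the filter on low values, a mean of at least 1 TPM over the libraries compared, only through its GFP-negative libraries. In the authors' deposited table the ratio of GFP-positive to GFP-negative Etv4 was 0.01 in C1, C11 and C43 and 0.02 in C50, against 0.80 for dDAVP over no dDAVP.

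Etv5 (ENSMUSG00000013089), the second PEA3 factor, had a low level throughout. The WT libraries held 2.33, 1.48 and 1.35 TPM without and 1.78, 2.17 and 1.68 TPM with dDAVP, with no change past the threshold (0.09, limma adjusted p 0.808). GFP-negative libraries gave 0.29, 1.79 and 2.92 TPM as lowest, median and highest value, and GFP-positive libraries 0, 0.27 and 0.76 TPM. The 2 fractions overlapped through the GFP-negative library of C50 that stands apart, at 0.29 TPM. The log2 change was -0.97 (SE 0.181, limma adjusted p 7.5e-04), and without that library -1.11 (adjusted p 3.46e-05). A pseudocount of 0.1 gave -2.05 (adjusted p 0.00132). Like Etv4, Etv5 passed the filter on low values through its GFP-negative libraries. The other close relative, Etv1, was at most 0.58 TPM in any library.

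Ets1 (ENSMUSG00000032035) was the one gene of the 10 called with dDAVP in WT cells, where it fell. It was 43.5, 36.5 and 35.5 TPM without dDAVP and 19.0, 26.3 and 22.4 TPM with dDAVP. The groups did not overlap, and the mean without dDAVP was 1.70 times that with dDAVP. The log2 change was -0.75 (SE 0.138, limma adjusted p 0.0222). Of the 6 fits that each leave out 1 WT library, 5 put the adjusted p above the threshold, at up to 0.083 (all but the one without dDAVP replicate 2), and so did the filter at any TPM above 0, the replicate block and the 4 WT libraries with more genes detected. The exact permutation p was 0.1, the smallest possible. Between the GFP fractions Ets1 overlapped, with 7.11, 30.9 and 48.7 TPM as lowest, median and highest GFP-negative value and 16.4, 26.7 and 38.3 TPM in the GFP-positive libraries. That change was -0.11 (limma adjusted p 0.710). Without C50 GFP-negative replicate 1 it was -0.31 and passed the threshold (adjusted p 0.0169). Ets1 also differed by clone: group means were 40.8 and 35.6 TPM in the GFP-negative and GFP-positive cells of C1, 35.6 and 30.7 in those of C11, 27.1 and 19.7 in those of C43 and 16.04 and 17.97 in those of C50. The C50 GFP-negative mean averages 7.11 TPM, in the library that stands apart, and 24.97 TPM. The latter lay above both GFP-positive libraries of C50, at 16.8 and 19.1 TPM.

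Ets2 (ENSMUSG00000022895), the paralogue of Ets1, was more abundant, with a median ratio to Ets1 of 4.36 over the 22 libraries. With dDAVP it was 97.4, 118 and 101 TPM, and without dDAVP 132, 115 and 111 TPM, which overlap (change -0.18, limma adjusted p 0.282). GFP-negative libraries gave 57.6, 127 and 155 TPM as lowest, median and highest value, and GFP-positive libraries 75.0, 92.6 and 111 TPM. In C1, C11 and C43 both GFP-positive libraries lay below both GFP-negative ones, while in C50 the fractions overlapped at 57.6 and 117 against 88.0 and 90.9 TPM. The change over the 4 clones was -0.32 and missed the threshold (SE 0.133, limma adjusted p 0.0741). Leaving out C50 GFP-negative replicate 1 gave -0.45 (adjusted p 5.86e-05), and leaving out clone C50 gave -0.47 (adjusted p 4.42e-04).

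In the branch of Elf1, Elf2 and Elf4 the changes ran from -0.45 to 0.19 over the 2 comparisons. Elf2 (ENSMUSG00000037174) was lower in the GFP-positive libraries, at 86.2, 102 and 121 TPM as lowest, median and highest value against 113, 125 and 148 TPM, and the fractions overlapped. Its change was -0.30 (SE 0.0758, limma adjusted p 0.00657), with median-ratio scaling at -0.22 (adjusted p 0.0646). Elf1 (ENSMUSG00000036461) gave 46.3, 51.8 and 64.1 TPM in GFP-negative and 46.8, 60.8 and 74.6 TPM in GFP-positive libraries. Its change of 0.19 passed narrowly (SE 0.0708, limma adjusted p 0.0483), and 24 of 31 alternatives put it on the other side of the threshold, the one without C50 GFP-negative replicate 1 among them (0.16, adjusted p 0.051). Elf4 (ENSMUSG00000031103) overlapped between fractions, at 1.79, 5.995 and 9.29 TPM against 3.07, 5.02 and 6.53 TPM (change -0.13, limma adjusted p 0.668), and without the C50 library that stands apart its change was -0.31 (adjusted p 0.043). In WT cells Elf4 was 10.5, 7.47 and 7.23 TPM without and 5.78, 6.72 and 4.99 TPM with dDAVP. These libraries did not overlap, yet the change of -0.45 missed the threshold (limma adjusted p 0.138). The dDAVP changes of Elf1 (0.01, adjusted p 0.971) and Elf2 (-0.06, adjusted p 0.708) were smaller than their standard errors of 0.119 and 0.102.

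Set against all genes, the dDAVP comparison called 1 of the 9 members tested, where 8.88% of 13494 tested genes were called and 6.51% were called lower. The GFP comparison over the 4 clones called 6 of the 9, where 35.3% of 13113 genes were called. Elf1, Elf3 and Ehf were higher, beside a background of 12.1% called higher, and Elf2, Etv4 and Etv5 were lower, beside 23.2% called lower. Of those 6, 2 had entered the test through the fraction in which they were high, so the count is a description. Without C50 GFP-negative replicate 1, 8 of 9 members and 46% of all tested genes were called, and without clone C43 3 of 8 members and 25.5% of genes. The clone libraries also fall into 8 with fewer and 8 with more genes at a TPM above 0. Each of these sets holds both fractions of 3 clones only, since no GFP-negative library of C11 is in the first and none of C1 in the second. The C50 GFP-negative library of the first set is replicate 1, which stands apart, so changes in that set rest partly on it. In the first, 2 of 8 tested members and 1.96% of genes were called, and in the second 7 of 9 and 29.9%. Elf3 gave 0.92 and 0.78 (limma adjusted p 0.0497 and 0.00283), and Ehf 0.47 and 0.50, of which the first did not pass (0.0812 and 0.0137). Etv4 gave -2.64 and -2.46, given as a description because it entered these fits through its GFP-negative libraries. The median change of all tested genes was -0.16 with dDAVP and -0.06 between the fractions, and the median of the 9 members was -0.06 and -0.13. Scaling moved the first of these medians to -0.0004 (median ratio) or -0.0284 (quantile), and with it the share of higher calls in the dDAVP comparison from 26.7% to 59.6% (median ratio) or 53.9% (quantile) and in the GFP comparison from 34.2% to 50.9% or 50.1%. The signs of the 6 members called between the fractions were the same under both scalings. In bulk RNA, fewer cells that express a gene and less RNA of it per cell cannot be told apart.

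**Figure D2:**
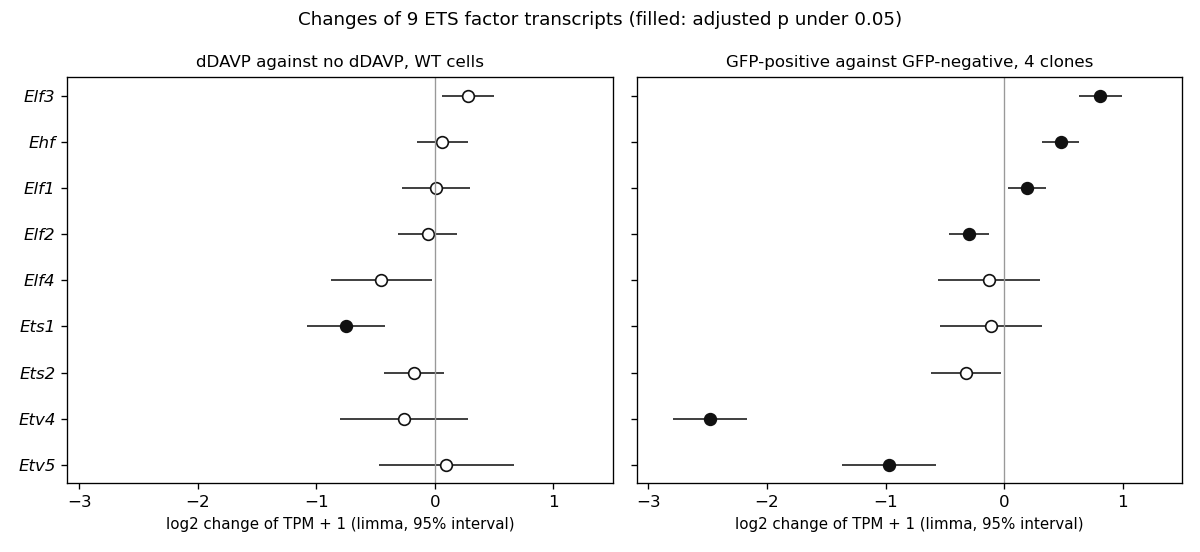
Log2 change of TPM + 1 with its 95% interval (limma) for 9 ETS factor genes, with dDAVP in WT cells on the left and between GFP fractions over 4 clones on the right. Filled points have an adjusted p under 0.05, and Elf5, under the filter, is not drawn. Ets1 at -0.75 is the one filled point on the left, and Etv4 at -2.48 lies farthest from 0 on the right. Etv4 and Etv5 entered the fit on the right through their GFP-negative libraries, so their filled points are descriptions.

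Within single clones, Elf3 passed the threshold in each of the 4. For Elf3, C1 gave a change of 0.55 (limma adjusted p 0.0173), C11 0.67 (0.0065), C43 0.89 (5.47e-04) and C50 1.14 (6.75e-05). For Etv4 the values were -2.36 (C1), -2.17 (C11), -2.84 (C43) and -2.56 (C50), with adjusted p-values of 6.32e-04 or less, for a gene that entered the fit through its GFP-negative libraries. The Etv4 call in C50 was lost in 1 of 24 alternatives (limma adjusted p 0.0877). Ehf passed in C1 (0.59), C43 (0.47) and C50 (0.61), and its change in C11 was 0.23 (adjusted p 0.327). Both GFP-positive libraries of C11, at 326 and 297 TPM, still lay above the GFP-negative ones at 270 and 259 TPM. Elf1 passed in C50 (0.42, adjusted p 0.0208), a call that was lost in 6 of 25 alternatives (adjusted p up to 0.324), among them those without C50 GFP-negative replicate 1 or either GFP-positive library of C50. This made 3 of 9 tested members in C1, where 7.22% of genes were called, 2 in C11 (7.94%), 3 in C43 (16.3%) and 4 in C50 (26.6%). Etv5 was lower in all 4 clones by point estimate, from -0.65 to -1.22, and passed in none, with the smallest adjusted p, 0.0502, in C43. The C50 changes of Elf4, Ets1 and Ets2 were 0.46, 0.38 and 0.12, none past the threshold, and turned to -0.25, -0.46 and -0.38 without C50 GFP-negative replicate 1.

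These calls rest on few libraries. The Elf3 call in C1 was lost without any 1 of the 4 C1 libraries (limma adjusted p up to 0.120), with quantile normalization and with any TPM above 0 as the filter. In C11 it was lost without GFP-negative replicate 1 or either GFP-positive library and with quantile normalization (up to 0.0719), and in C50 when that clone was fitted alone (0.0935). The C43 call held in all 25 alternatives run. The Ehf calls in C1 and C43 were lost without any 1 library of the clone (adjusted p up to 0.123 and 0.180), and those in C1, C43 and C50 with median-ratio scaling. Without any 1 of the C1 libraries 1 member was called in C1, beside 2.87% to 4.51% of genes, and without any 1 of 3 C11 libraries (GFP-negative replicate 1 or either GFP-positive one) 1 was called in C11, beside 2.42% to 2.83%. Since the spread is shared, leaving out C50 GFP-negative replicate 1 also moved the counts of the other clones, to 5 in C1, 5 in C11 and 6 in C43, where 15.9%, 17.7% and 29.6% of all genes were then called. Leaving out C50 GFP-negative replicate 2 gave 4 in C11, 5 in C43 and 7 in C50, beside 17.8%, 29.8% and 52.2% of genes.

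**Figure D3:**
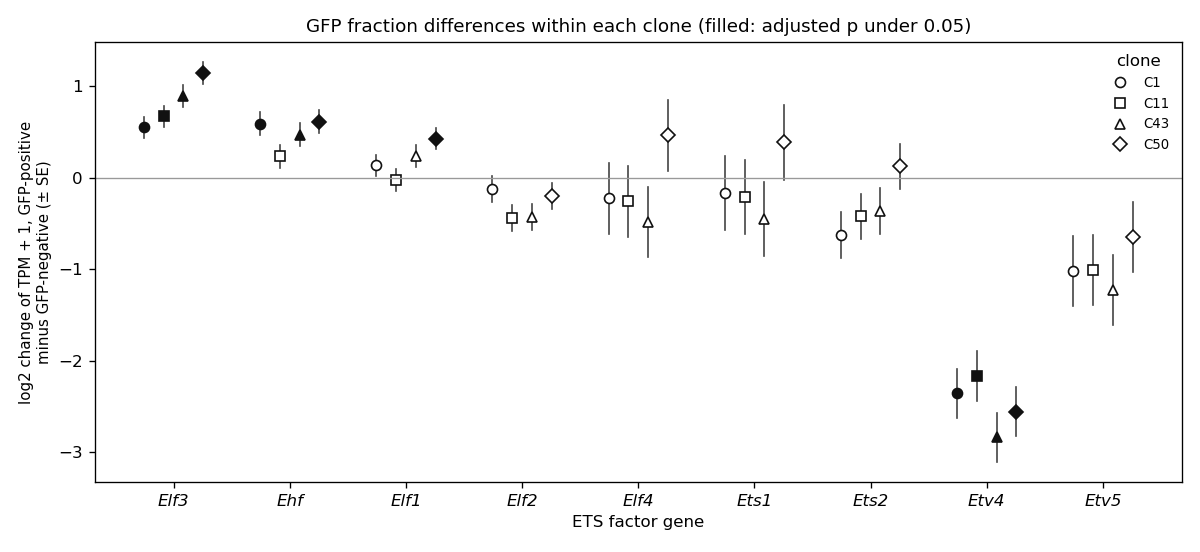
GFP-positive minus GFP-negative difference of log2(TPM + 1) for 9 ETS factor genes within clones C1 (circles), C11 (squares), C43 (triangles) and C50 (diamonds), with bars of 1 SE. Filled symbols have an adjusted p under 0.05. Elf3 and Etv4 are filled in every clone, and the C50 diamonds of Elf4, Ets1 and Ets2 lie above 0 where those of the other clones lie below. Etv4 entered the fit through its GFP-negative libraries, so its filled symbols are descriptions.

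Whether the fraction change differs between clones depended on 1 library. The interaction of fraction and clone called 0 of 9 members, where 0.869% of genes were called. Elf3 was the only member with an unadjusted p under 0.05 (0.0226, adjusted p 0.293). Without C50 GFP-negative replicate 2, which leaves that group the library that stands apart, 38.6% of all genes were called, and with them 4 of 8 members: Elf3 (adjusted p 0.0122), Elf4 (0.0231), Ets1 (0.00736) and Ets2 (0.00322). Levels did differ between clones whatever the fraction for Elf1 (limma F-test adjusted p 0.0241), Elf3 (0.0167) and Ets1 (0.0144), 3 of 9 members, where 28.0% of genes were called. Leaving out 1 library at a time gave 1 to 4 called members, with the shares of all genes given below. Without C1 GFP-positive replicate 1, Ets1 alone was called, beside 20.9% of genes. The highest count, with Ets2 added, came without C50 GFP-negative replicate 1. Elf3 was lowest in C1, at 722 and 1055 TPM in its 2 fractions, and Ets1 was highest there. The fraction means of Elf1 were 61.8 and 68.1 TPM in C1 and 54.6 and 73.6 TPM in C50, against 48.3 to 56.9 TPM in C11 and C43.

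The dDAVP change in WT cells and the fraction change in the clones could be set against each other, since they share no library. This difference was tested after the values had been seen. It was past the threshold for 4 of 9 members, where 13.9% of 13244 genes were called. The fraction change exceeded the dDAVP change by 0.53 for Elf3 (SE 0.114, limma adjusted p 0.00572) and by 0.41 for Ehf (SE 0.114, adjusted p 0.0253). It was lower by point estimates of -2.22 for Etv4 (SE 0.253, adjusted p 2.89e-05) and -1.07 for Etv5 (SE 0.327, adjusted p 0.041). Etv4 and Etv5 entered this fit through the libraries in which they are high, so their values and the count of 4 are descriptions. Etv5 lost this call in 18 of 27 alternatives and Ehf in 5 of 28. The count was 2 without WT no-dDAVP replicate 2 or without WT dDAVP replicate 3, beside 9.62% and 8.36% of genes. For Ets1, which fell with dDAVP, the difference was 0.64 and did not pass (adjusted p 0.229), with a 95% interval of -0.09 to 1.37.

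For Aqp2 the change with dDAVP (5.36) was larger than that between the fractions (3.11, limma adjusted p of the difference 1.76e-10). The latter averages Aqp2 changes that ran from 1.90 (C50) and 2.10 (C43) to 3.59 (C11) and 4.84 (C1) and differed by clone (interaction adjusted p 2.15e-06). Groups of like Aqp2 were set side by side. WT cells with dDAVP (mean Aqp2 2868 TPM) and C11 GFP-positive cells (3002 TPM) overlapped in Aqp2. Etv4 was 2.08 to 3.84 TPM in the former against 0 and 0.10 TPM, and Elf3 was 1087 against 1538 TPM, with no overlap in either gene. C1 GFP-positive cells, the next group below in Aqp2 at 2017 TPM and with no overlap, had Etv4 at 0 and 0.09 TPM and Elf3 at 1055 TPM, which overlapped WT cells with dDAVP. At the low end, C1 GFP-negative cells and WT cells without dDAVP had nearly equal Aqp2, 69.5 and 69.1 TPM. Their Etv4 overlapped, and their Elf3 did not, at 717 and 726 TPM against 828 to 948 TPM. GFP-negative cells of C43 and C50 had mean Aqp2 of 1624 and 1243 TPM together with Etv4 at 4.40 to 7.77 TPM. Etv4 was thus near 0 in the GFP-positive libraries and not in the other libraries of high Aqp2 (plot of the members beside Aqp2). These pairs of groups differ in clone and sorting as well, and were not tested.

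**Figure D4:**
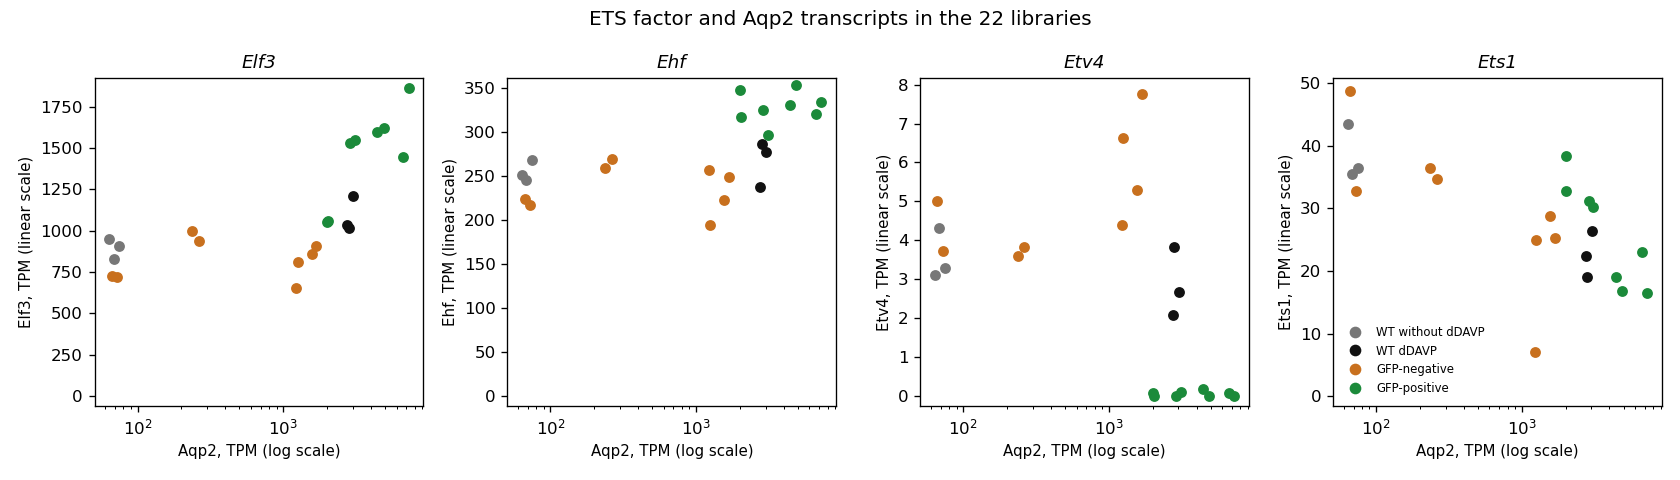
TPM of Elf3, Ehf, Etv4 and Ets1 (vertical, linear) against TPM of Aqp2 (horizontal, log scale) in the 22 libraries, coloured by WT without dDAVP, WT with dDAVP, GFP-negative and GFP-positive. The GFP-positive libraries of Etv4 lie at 0 to 0.19 TPM and WT libraries with dDAVP at 2.08 to 3.84 TPM, and of the GFP-positive groups C11 overlaps those WT libraries in Aqp2.

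The levels over the 10 groups could be ordered. Elf3 ran from 722 TPM in C1 GFP-negative to 1652 TPM in C43 GFP-positive cells, a 2.29-fold span. In that order the GFP-positive groups of C11, C50 and C43 came last and were separated by a gap from WT cells with dDAVP, while C1 GFP-positive (1055 TPM) and WT cells with dDAVP (1087 TPM) overlapped. Ehf ran from 221 to 342 TPM with a single gap, between WT cells with dDAVP (267 TPM) and C11 GFP-positive cells (311 TPM). Etv4 also had a single gap, between the 4 GFP-positive groups and the rest. Of the 9 steps between neighbouring groups, 7 overlapped for Ets1 and for Elf2, 8 for Elf1, Elf4, Ets2 and Etv5, and all 9 for Elf5.

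The 16 other genes of the ETS family that were listed added little RNA, at 109 to 156 TPM summed in group means against 1244 to 2252 TPM for the 10 members. Of these 16, 8 were high enough to test. None was called with dDAVP (limma; 4 of the 8 at an unadjusted p under 0.05, beside 4179 of all 13494 genes), and 2 of 8 were called lower between the fractions, beside 23.2% of all genes. Elk3, a ternary complex factor, fell by 0.87 on the log2 scale (limma adjusted p 2.91e-04), from 22.6 to 30.1 TPM in GFP-negative to 6.39 to 20.8 TPM in GFP-positive group means. Spi1, a factor of myeloid cells named here because it was called, fell by 0.91 (adjusted p 2.74e-04), from 2.58 to 5.29 TPM to 1.24 to 2.18 TPM. Etv3, a repressor, had a change of 0.45 (adjusted p 0.0507). Elk1, Elk4, Etv6 and Gabpa did not pass.

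Genes around the ETS factors were taken as 3 lists, chosen with earlier results of these data known, so their counts are descriptions. The first list holds 16 feedback and immediate targets of ERK. With dDAVP none of its 14 tested genes was called by limma, beside 8.88% of all genes (6 of 14 at an unadjusted p under 0.05, beside 4179 of 13494). Between the fractions 1 was higher and 3 were lower of 14, beside 12.1% and 23.2% of all genes, with a median change of -0.06, equal to that of all genes. Ccnd1, the cyclin D1 gene, fell by 3.23 (limma adjusted p 3.53e-09), from 14.3 to 23.7 TPM in GFP-negative to 0.645 to 2.48 TPM in GFP-positive group means. Dusp4, a nuclear MAP kinase phosphatase, fell by 0.82 (adjusted p 0.0222), and Fosl1, an AP-1 subunit, by 0.76 (adjusted p 9.37e-05). Dusp6, a phosphatase of ERK, rose by 0.21 (adjusted p 0.0307). GFP-negative means with and without C50 GFP-negative replicate 1 were 19.6 and 20.1 TPM for Ccnd1 and 17.2 and 18.9 for Dusp4. They were 120 and 126 TPM for Fosl1 and 278 and 286 for Dusp6. The other 10 tested genes of the list, Spry1, Egr1 and Myc among them, were not called.

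The second list holds 15 genes of the Ret and Etv4/Etv5 pathway of the ureteric bud. Ret, Gdnf, Gfra1, Wnt11 and Cxcr4 were below 0.5 TPM in every group mean, and 8 of the 15 genes were tested. With dDAVP 0 of 8 were called by limma, beside 8.88% of all genes (2 of 8 at an unadjusted p under 0.05, beside 4179 of 13494). Between the fractions 4 were higher and 1 lower, beside 12.1% and 23.2% of all genes, with a median change of 0.30 beside -0.06. The 4 largest were Sox9, a bud tip progenitor factor, which fell by 1.14 (limma adjusted p 7.61e-04), and the growth factor receptor Fgfr2 (1.00, adjusted p 0.00119), the collecting duct factor Gata3 (0.91, adjusted p 1.68e-05) and Egfr (0.54, adjusted p 0.00465), which rose. GFP-negative means with and without C50 GFP-negative replicate 1 were 88.3 and 94.0 TPM for Sox9 and 103 and 112 for Fgfr2. They were 141 and 148 TPM for Gata3 and 45.9 and 48.5 for Egfr.

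The third list holds 21 epithelial genes that have been named as targets of Elf3, Ehf or Elf5, of which 16 were tested. With dDAVP 4 were higher and none lower, beside 2.37% and 6.51% of all genes. Krt19 rose by 0.99 (limma adjusted p 0.00165), Krt18 by 0.63 (0.00186), the cornified envelope gene Sprr1a by 0.62 (0.0208) and Krt8 by 0.44 (0.00722). Between the fractions 5 were higher and 4 lower, beside 12.1% and 23.2% of all genes, with a median change of 0.16 beside -0.06. The largest were the iron carrier gene Lcn2, which fell by 0.99 (adjusted p 2.19e-04), the protease gene Tmprss2, which rose by 0.82 (5.72e-04), Krt19, which rose by 0.70 (4.65e-06), and the adhesion gene Epcam, which fell by 0.70 (1.67e-07). GFP-negative means with and without C50 GFP-negative replicate 1 were 2321 and 2403 TPM for Lcn2 and 333 and 360 for Tmprss2. They were 1057 and 1075 TPM for Krt19 and 692 and 679 for Epcam.

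Proliferation markers moved beside these changes. All 6 of the list (Mki67, Top2a, Ccnb1, Cdk1, Bub1 and Plk1) were lower in GFP-positive cells, and 5 of 6 were lower with dDAVP, beside 23.2% and 6.51% of all genes called lower. Their summed level was 481 to 858 TPM in GFP-negative and 207 to 377 TPM in GFP-positive libraries, and 656 to 721 TPM without and 386 to 541 TPM with dDAVP in WT cells. Their part in the changes of the ETS genes was not tested. Of 9 tested markers of collecting duct epithelium, Aqp2 among them, 6 were called higher and 2 lower between the fractions. The shares of all genes were 12.1% and 23.2%. Of 6 leukocyte markers Spi1 was the one tested, and the others stayed at or below 1.13 TPM in group means. The intercalated cell list held 1 tested gene of 5, Atp6v1b1, which rose by 0.81 (limma adjusted p 0.00899) while Foxi1, Slc4a1 and Slc26a4 stayed at or below 0.24 TPM in group means and Atp6v0d2 at or below 0.375 TPM, its highest library at 0.68 TPM in C43 GFP-positive cells.

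Genes outside the family with the most similar profile were taken for each called member with a mean of at least 5 TPM, by Pearson r of log2(TPM + 1) over the 22 libraries. For Elf3 these were Tmem45b (r 0.958), Tubb2a (0.949) and Zfand5 (0.948). For Ehf they were Avpr2 (0.897), the V2 receptor through which dDAVP acts, Cpne8 (0.876) and Tnfaip8 (0.862). Avpr2 averaged 158 TPM in GFP-negative and 353 TPM in GFP-positive libraries. For Ets1 the closest were Msh6 (0.968) and the actin crosslinker Actn4 (0.954). Ets1 was 7.11 TPM in C50 GFP-negative replicate 1 and 16.4 TPM or more in the other libraries. The coefficients without that library were not computed. For Elf1 they were Arf4 (0.870), Dlec1 (0.840) and Zmym5 (0.832), and for Elf2 Emc10 (0.899), Zkscan17 (0.880) and Zfr (0.870). Etv4 lay under the level required, and its values were looked at after they had been seen: Tnfrsf12a (0.971), Basp1 (0.970) and Wnt10a (0.963) came closest, and Tnfrsf12a averaged 783 TPM in GFP-negative and 107 TPM in GFP-positive libraries. These libraries share clones and treatment, so the coefficients are descriptions.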

How the data were processed

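RNA-seq values of 22 libraries of mpkCCD cells in 10 groups were used. Per the labels' protocols, cDNA was made with the SMART-Seq HT kit and libraries with Nextera XT, sequenced paired-end. STAR and RSEM are named in the submitters' processing notes. Genome build, annotation and versions are not given in the sources used here. The authors deposited TPM per gene and library, together with group means, the ratio of group means and a score column with the highest value of each line, which was not used. The ratio values are printed only as the authors' deposited values. TPM keep no depth, so depth is unknown and neither counts nor intervals from counts could be used.

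The labels list several dDAVP doses and durations without assigning them to libraries, so these were not analysed here. Lines that share a symbol were summed (980 lines, 79 symbols), and each of the 10 members had 1 line. Linear models were fitted with limma 3.58.1 in R 4.3.3 to log2(TPM + 1) of all genes with a mean of at least 1 TPM over the libraries compared, with a mean-variance trend, two-sided, and Benjamini-Hochberg adjustment over all tested genes. A gene with an adjusted p under 0.05 is called. The dDAVP fit used the 6 WT libraries. The GFP fit used 16 clone libraries with the clone as covariate, and within-clone changes came from a mean per clone and fraction with a shared spread. The GFP minus dDAVP difference, from 22 libraries, was added after the values had been seen. Exact permutation tests were run on single members. Named genes are the 10 members, Aqp2, the 4 largest called genes of each list and comparison with a mean of at least 5 TPM, ETS genes at that level, and the 3 genes of highest r per called member at that level. The members and lists were chosen with earlier results of these data known.

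On simulated data, 16% of genes changed by a log2 of 0.5 and 51% of those changed by 1 were recovered in the dDAVP comparison of 13494 genes, and 42.5% and 87% in the GFP comparison of 13113 genes. Of the calls in the simulated GFP comparison at these sizes, 6.59% and 7.45% were false, and 3.03% and 4.67% in that of dDAVP. Alternatives were other pseudocounts, filters, scalings and moderation, the replicate block, detected genes as a covariate, clone means, and leaving out libraries or clones. Promoter windows came from RefSeq on GRCm38.p6, trimmed at the first GENCODE M21 start. One gene that the rule for similar profiles would name is not reported here.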

Additional observations from a re-analysis of the deposited data

Results flagged for a closer look

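A difference between 2 contrasts, the GFP fraction change in dDAVP-treated clones and the dDAVP change in WT cells, passed the test for 4 of the 9 ETS genes tested, where 13.9% of 13244 genes did, and each of the 4 is given here for that reason. The test was added after the values had been seen. For Elf3 the fraction change exceeded the dDAVP change by 0.53 on the log2 scale (limma adjusted p 0.00572), with all 8 GFP-positive libraries above all 8 GFP-negative ones. For Ehf the difference was 0.41 (adjusted p 0.0253), again with the fractions fully apart and the WT groups overlapping. For Etv4 it was -2.22 (adjusted p 2.89e-05), with 8 of 8 GFP-positive libraries under every other library. For Etv5 it was -1.07 (adjusted p 0.041), and this value missed the threshold in 18 of 27 alternatives. Etv4 and Etv5 passed the filter on low values only through libraries other than the GFP-positive ones, so their differences are given as descriptions.

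The 2 contrasts also differ in sorting, clone and reporter, which cannot be told apart from the difference.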

How the results depend on the processing

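Elf3 kept its direction and its side of the threshold between the GFP fractions in all 31 alternatives run. Etv4 and Etv5 could be tested in 30 and 24, and since they enter through the GFP-negative libraries their calls there show nothing of stability. Ehf did so in 30 of 31, and missed it among the libraries with fewer genes detected (0.47, limma adjusted p 0.0812). Elf2 lost its call in 5 of 31 and Elf1 in 24 of 31. The causes of the moves below were not tested.

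The number of members called with dDAVP, 1, became 0 with any TPM above 0 as the filter (1.16% of all genes called, in place of 8.88%), 0 with the replicate block (0.904%), 0 among libraries with more genes detected (0.728%), and 2 with median-ratio scaling (5.61%), and it was 0 to 1 when a library was left out (2.31% to 15.2%). The percentages that follow are likewise the shares of all genes called under the same setting. Between the fractions the 6 called (35.3%) became 2 among libraries with fewer genes detected (1.96%), and 3 to 8 when a library or clone was left out (25.5% to 46%). Within C1 the 3 (7.22%) became 1 to 5 without a library (2.87% to 16%). Within C11 the 2 (7.94%) became 1 with a minimum of 5 TPM (10%), 1 with quantile normalization (8.76%), and 1 to 5 without a library (2.42% to 17.8%). Within C43 the 3 (16.3%) became 5 with quantile normalization (17.6%), 5 with detected genes as covariate (19.2%), and 2 to 6 without a library (6.58% to 29.8%). Within C50 the 4 (26.6%) became 2 with median-ratio scaling (29.2%), 0 when fitted on that clone alone (0.169%), and 3 to 7 without a library (13.7% to 52.2%). The interaction count of 0 (0.869%) ran from 0 to 4 without a library (0.319% to 38.6%). Differences between clones went from 3 (28.0%) to 1 with any TPM above 0 (6.58%), and 1 to 4 without a library (20.9% to 44.8%). The GFP minus dDAVP count went from 4 (13.9%) to 2 with a minimum of 5 TPM (17.5%), 2 with any TPM above 0 (2.53%), and 2 to 5 without a library (8.14% to 34.1%). The libraries split by genes detected and the GFP minus dDAVP fits were chosen after seeing the data.

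Signs that turned belonged to changes that did not pass. With dDAVP, Elf1 became -0.038 with detected genes as covariate and ran from -0.055 to 0.11 when a library was left out. Elf2 became 0.11 with median-ratio scaling and 0.017 among libraries with more genes detected, and ran from -0.16 to 0.033 without a library. Ehf became -0.016 among libraries with more genes detected, and Etv5 ran from -0.0023 to 0.25 without a library. Between the fractions, among libraries with fewer genes detected, Elf4 became 0.054 and Ets1 0.051, and Ets1 ran from -0.31 to 0.0017 without a library or clone. The libraries with fewer genes detected include C50 GFP-negative replicate 1, in which Elf4 and Ets1 were lowest. Within C1, Elf2 ran from -0.32 to 0.075, Elf4 from -0.52 to 0.066 and Ets1 from -0.45 to 0.11 without a library. Within C11, Elf1 became 0.12 with median-ratio scaling and 0.13 with quantile normalization, and ran from -0.12 to 0.067 without a library. Within C50, without a library, Elf4 ran from -0.25 to 1.17, Ets1 from -0.46 to 1.22 and Ets2 from -0.38 to 0.63.

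Same-numbered libraries had correlated deviations of -0.208, -0.0254 and -0.109 in WT cells, and of 0.0151 to 0.0825 in 3 clones and 0.203 in C43, so not every pair passed 0.1, and 0 of 6 WT libraries correlated best with their own number. With the replicate block, 5 of 9 members and 32.5% of all genes were called between the fractions.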
